A study of Homo sapiens with 11 samples.

Results

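miR-218, miR-139 and miR-490 are microRNAs (miRNAs) that lie within introns of protein-coding genes and were analysed across 6 human solid tumour-derived cell lines. Of 2588 mature miRNAs on 2813 rows, the 7 arms listed for these miRNAs were taken by name, on 8 rows, because miR-218-5p is listed at 2 genomic copies. They had been selected on their CPM (defined below) in the neuroblastoma line, which was high against the other lines, so that all values of that line against the others are a description without a test. Small RNA-seq had been performed in BE(2)-C (neuroblastoma), Hep-G2 (liver), MV3 (melanoma), ES-2 (ovary), A-549 (lung) and PANC-1 (pancreas) cells, with 2 biological replicates each and 1 for PANC-1, which makes 11 libraries. All were parental lines that had received no siRNA, and no control or treated group exists in the series. The cells were harvested 48 h after seeding, except that BE(2)-C was harvested after 24 h by the protocol and after 48 h by its sample characteristics. BE(2)-C was grown in EMEM:DMEM/F12 medium and the other lines in DMEM, all with FBS. NEXTflex libraries from 50 ng total RNA represent MV3, ES-2, A-549 and PANC-1, whereas Novogene prepared those of BE(2)-C and Hep-G2 and sequenced them on another instrument at another read length. Between these sets, effects of the preparation and of the line cannot be told apart, and medium and harvest time cannot be told apart from BE(2)-C itself.

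A miRNA gene within an intron can be transcribed together with its host, and the hairpin is then released by Drosha and Dicer into a duplex of a 5p and a 3p arm. Usually 1 arm is retained in Argonaute, where bases 2 to 8, the seed, pair with target mRNAs, while the other arm is degraded. SLIT2 and SLIT3 encode secreted guidance ligands that bind ROBO receptors on growing axons, and miR-218, hosted by both, is known from motor neurons and targets ROBO1. PDE2A, the host of miR-139, encodes a cGMP-stimulated phosphodiesterase that is abundant in brain. CHRM2, the host of miR-490, encodes the M2 muscarinic acetylcholine receptor of heart and nervous system.

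The mature sequences are shown because the 3p arms of miR-218 differ between its loci, whereas its 5p arm does not. They were taken from RefSeq (GRCh38.p14), which matched 2281 of the 2588 names, and seed bases 2 to 8 are in capitals.
hsa-miR-218-5p: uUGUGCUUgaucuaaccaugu
hsa-miR-218-1-3p: aUGGUUCCgucaagcaccaugg
hsa-miR-218-2-3p: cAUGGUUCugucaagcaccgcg
hsa-miR-139-5p: uCUACAGUgcacgugucuccagu
hsa-miR-139-3p: uGGAGACGcggcccuguuggagu
hsa-miR-490-5p: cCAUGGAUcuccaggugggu
hsa-miR-490-3p: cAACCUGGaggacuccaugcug
No other listed miRNA with a matched sequence shared a seed with any of the 7. The arms were 20 to 23 nt long, and GC content was lowest in miR-218-5p with 38.1% and highest in miR-139-3p with 65.2%. The 3p arms of miR-218 aligned over 21 bases when the second was shifted by 1 base, with 18 identical bases and the differences C8U, A19G and U20C (positions from 1 at the 5′ end of miR-218-1-3p, its base named first). That shift also moved the seed, so that the 3p arms of miR-218 carry different seeds.

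All 4 hairpins lay on the strand of their host and overlapped no exon of a coding transcript in the GENCODE annotation. MIR218-1 was placed at chr4:20528275-20528384 (+) in intron 15 of SLIT2 (ENSG00000145147.20, 37 exons), 564 bp from the nearest exon. MIR218-2 was placed at chr5:168768146-168768255 (−) in intron 14 of SLIT3 (ENSG00000184347.16, 36 exons), 4525 bp from the nearest exon. MIR139 was found at chr11:72615063-72615130 (−) in intron 2 of PDE2A (ENSG00000186642.16, 31 exons), 6311 bp from the nearest exon. MIR490 was found at chr7:136903167-136903294 (+) in intron 2 of CHRM2 (ENSG00000181072.12, 4 exons), an intron of 122.768 kb. SLIT3 harbors a further miRNA, MIR585 at chr5:169263601-169263694 (−) in intron 1, which lay 495.345 kb from MIR218-2. The hairpins are given below as RNA with the mature arms in capitals, since the 5p arm is the same in both miR-218 hairpins.
MIR218-1: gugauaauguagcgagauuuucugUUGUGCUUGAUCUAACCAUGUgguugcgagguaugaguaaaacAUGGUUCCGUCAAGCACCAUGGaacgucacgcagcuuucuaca
MIR218-2: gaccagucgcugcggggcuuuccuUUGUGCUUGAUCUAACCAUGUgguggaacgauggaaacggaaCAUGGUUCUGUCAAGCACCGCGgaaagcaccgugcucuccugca
MIR139: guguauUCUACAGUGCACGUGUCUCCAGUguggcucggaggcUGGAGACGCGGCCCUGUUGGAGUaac
MIR490: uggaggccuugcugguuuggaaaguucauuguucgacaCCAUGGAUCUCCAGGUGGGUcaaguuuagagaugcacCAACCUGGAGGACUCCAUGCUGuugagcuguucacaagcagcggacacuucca
At equal length, 70 of the 110 bases of the miR-218 hairpins were identical (63.6%).

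**Figure D1:**
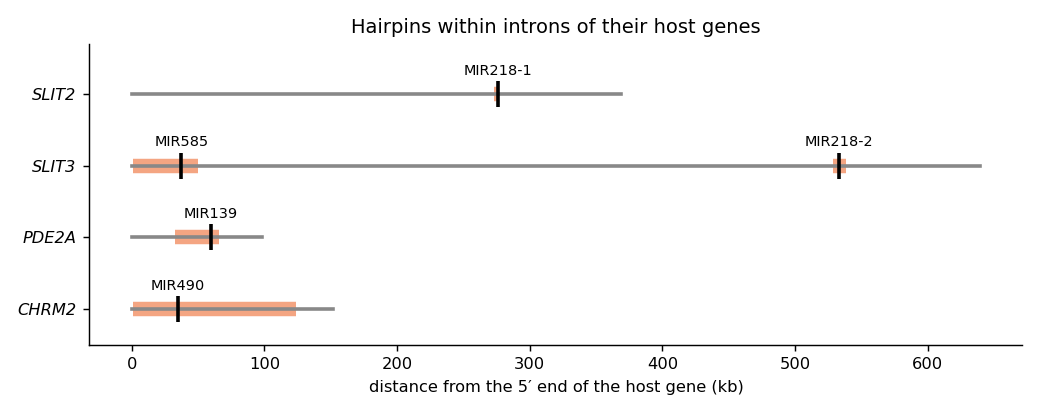
Position of each hairpin (black bar) within its host gene (grey line), with distance from the 5′ end of the gene in kb on the x axis and the intron that holds it shaded. SLIT3 spans 639.4 kb and holds MIR585 near its 5′ end and MIR218-2 far downstream of it, whereas PDE2A spans 98.451 kb.

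Levels are given as CPM, which sets the reads of a given miRNA against the miRNA reads of its whole library. Libraries held 1173902 to 12137452 such reads (median 2670030), and a count of 0, which allows up to 3 reads, corresponds to a limit between 0.247 CPM for the deepest and 2.56 CPM for the shallowest of them. Intervals and these limits cover counting error only. Line labels were checked by marker miRNAs. The 6 neuroblastoma markers summed to 94810 and 60460 CPM in BE(2)-C against 1390 to 4771 CPM in the other 9 libraries. Most of the BE(2)-C sum came from miR-7-5p, with 68724 and 35823 CPM there and 1080 to 4530 CPM in the other 9 libraries. Neuronal miR-124-3p reached only 17.7 and 28.1 CPM in BE(2)-C, and miR-9-3p was highest in PANC-1 (464 CPM against 96.7 and 248 CPM in BE(2)-C). Melanocytic miR-211-5p had 0 reads in every library including MV3, and the 3 pancreas markers had 0 reads in PANC-1. The 4 liver markers summed to 15835 and 16456 CPM in Hep-G2, above every other library, mostly from miR-192-5p. Hepatocyte miR-122-5p stood at only 64.0 and 50.0 CPM in Hep-G2. miR-194-5p was highest in A-549, with 1883 and 1899 CPM against 219 and 240 CPM in Hep-G2. The BE(2)-C libraries differed in markers of other tissues: miR-122-5p amounted to 823 and 5.96 CPM and erythroid miR-451a to 299 and 46.0 CPM in replicates 1 and 2. The 6 markers of blood, endothelium and muscle together summed to 1166 and 754 CPM in BE(2)-C and to between 34.1 and 7114 CPM elsewhere, with the highest sum in PANC-1. The 6 epithelial markers summed to 1434 and 1497 CPM in Hep-G2, 977 and 1026 CPM in A-549, 133 CPM in PANC-1 and 34.1 to 54.2 CPM in the libraries of the other lines. The part of such RNA in the BE(2)-C values was not tested, and each of these values is therefore given per library.

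miR-218-5p, the dominant arm, was abundant in BE(2)-C and present in every line. hsa-miR-218-5p amounted to 68764 and 88238 CPM in the BE(2)-C libraries, 6.88% and 8.82% of all miRNA reads, and its mean of 78501 ± 13770 CPM (SD, n = 2) ranked second among all miRNAs of that line. The level sums the rows of both genomic copies, and whether a read was counted at both is not known. If so, the level and share would be overstated, and the rank could be too. MV3 followed with 1911.6 and 1771 CPM, ES-2 with 513 and 547 CPM, A-549 with 178 and 183 CPM, PANC-1 with 110.4 CPM and Hep-G2 with 6.73 and 7.83 CPM. No line overlapped its neighbour in this order, and the order was the same when libraries were scaled by TMM (trimmed mean of M-values) factors. The BE(2)-C mean was 42.6-fold that of MV3, 148-fold that of ES-2, 435-fold that of A-549, 711-fold that of PANC-1 and 10783-fold that of Hep-G2. The fold over Hep-G2 depends on the scaling, since TMM factors put Hep-G2 at 38.3 and BE(2)-C at 51052 scaled CPM.

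Among the lines of the NEXTflex preparation, miR-218-5p differed in each comparison. It was lower in A-549 than in ES-2 by a log2 difference of -1.55 ± 0.17 (SE; on the log2(CPM + 1) scale; limma, Benjamini-Hochberg adjusted p = 0.000149). Against MV3, the difference was -3.34 ± 0.17 for A-549 (limma, adjusted p = 6.4e-06) and -1.79 ± 0.17 for ES-2 (limma, adjusted p = 0.000161). The F test of limma over these 4 lines gave an adjusted p of 6.08e-06. With TMM factors, the 3 log2 differences were -1.23, -2.54 and -1.31 and remained past the threshold. PANC-1 had 1 library and entered the F test only.

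**Figure D2:**
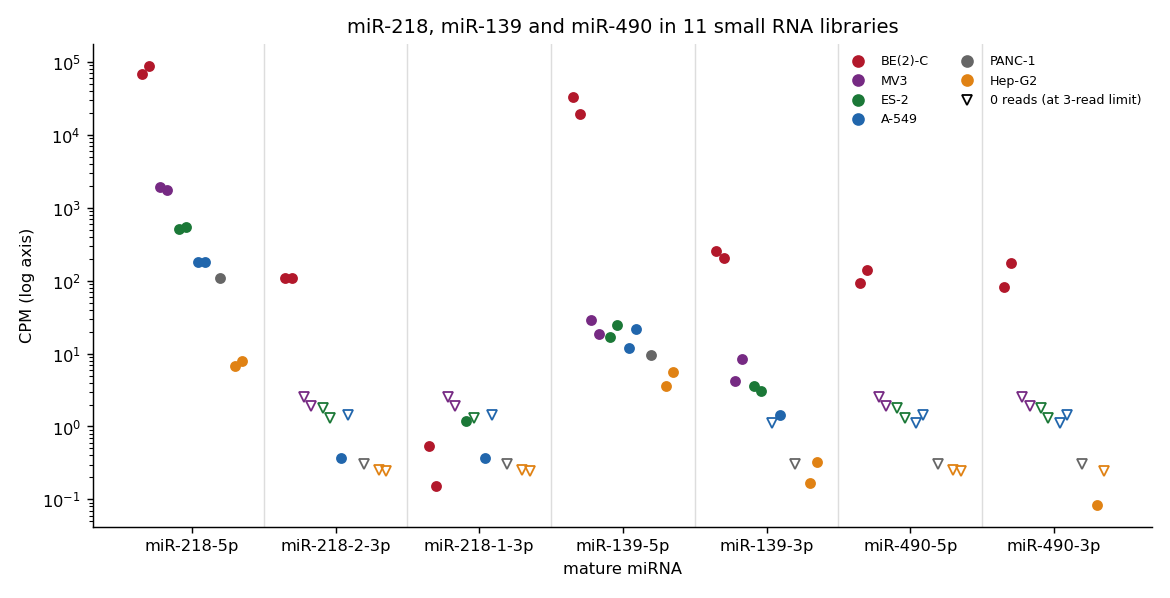
Level of each of the 7 miRNA arms in CPM (log axis) in the 11 libraries, with 1 point per library and open triangles at the limit that 0 reads allow. Both BE(2)-C libraries lie above every other library for 6 arms, while miR-218-1-3p stays at or below 1.20 CPM in all libraries.

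The 3p arms of miR-218, which unlike the 5p arm differ between the loci, were read almost entirely from the SLIT3 copy in BE(2)-C. hsa-miR-218-2-3p was counted 814 and 701 times in the BE(2)-C libraries, or 108.2 and 107.2 CPM, and these replicates were closer to each other than those of any other arm studied here. Outside BE(2)-C it was read once, in A-549 replicate 1, and 8 libraries had 0 reads. Its BE(2)-C level was therefore at least 142-fold that of ES-2, 97.8-fold that of MV3, 350.1-fold that of PANC-1 and 863-fold that of Hep-G2, taking 3 reads over a line as the limit. Against the single read of A-549 the ratio was 509.7, with a counting interval from 91.3 to 20146. hsa-miR-218-1-3p, from the SLIT2 copy, was read 4 times and 1 time in BE(2)-C, 2 times in ES-2 replicate 1, 1 time in A-549 replicate 1 and not at all in the other 7 libraries. It was the arm that did not reach a mean of 10 CPM in any line. Among the 3p reads of miR-218, the SLIT2 copy accounted for 0.489% (95% Wilson interval 0.190% to 1.25%) and 0.142% (0.0252% to 0.802%) in BE(2)-C replicates 1 and 2. In the other lines the 3p reads were too few for such a share. Whether the 3p arms of both copies are retained and sequenced alike was not tested. The share is therefore one of reads and not of transcription.

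The deposited rows of miR-218-5p cannot answer from which locus it came. In BE(2)-C, 258595 reads stood on the copy of chromosome 4 and 258572 on the copy of chromosome 5 in replicate 1, and 288580 and 288500 in replicate 2, which is 50.0% each. Over all libraries, the copy of chromosome 4 held 48.4% to 54.5% of the reads. The mature sequence is the same at both loci, so these rows place no read at a locus.

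miR-585, the other miRNA of SLIT3, was taken as a comparison because it lies within the same host gene. It was named with earlier results of these data known. miR-585-3p was counted at 114 and 170 CPM in BE(2)-C, 13.1 and 9.71 CPM in A-549, 8.42 and 8.28 CPM in ES-2 and 1.44 CPM in PANC-1. Both MV3 and both Hep-G2 libraries had 0 reads of it. MV3 thus had the second highest level of miR-218-5p and no detected miR-585-3p or miR-218 3p arm. At the arm ratio of BE(2)-C, 3.12 and 3.81 miR-218 3p reads would accompany the miR-218-5p reads of MV3 replicates 1 and 2. In each of these libraries 0 were counted. Whether the arm ratio of MV3 differs from that of BE(2)-C was not tested. The MV3 libraries were the shallowest of the series, and from which locus miR-218-5p of MV3 came was not tested either. The pooled level of miR-585-3p was at least 10.6-fold that of MV3 in A-549 (55 reads) and at least 7.57-fold in ES-2 (33 reads). In limma the differences from MV3 had adjusted p-values of 6.03e-05 for A-549 and 0.000183 for ES-2, whereas A-549 and ES-2 differed by 0.39 ± 0.31 on the log2(CPM + 1) scale (SE; adjusted p = 0.327; 95% interval -0.33 to 1.12). The order of MV3, ES-2 and A-549 thus ran opposite for miR-218-5p and miR-585-3p, except that A-549 and ES-2 were not told apart for miR-585-3p.

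**Figure D3:**
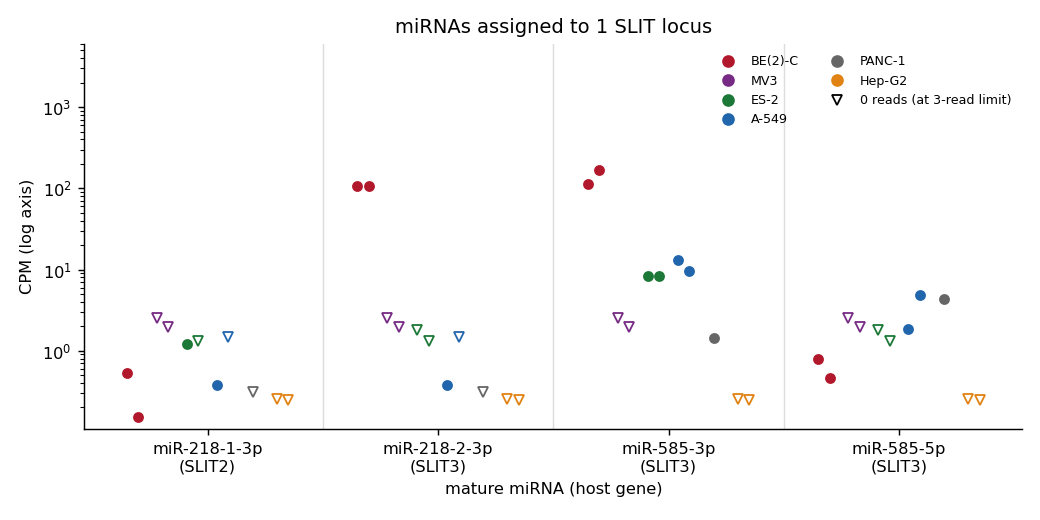
CPM (log axis) of the mature miRNAs that can be assigned to SLIT2 or SLIT3, with 1 point per library and open triangles at the limit that 0 reads allow. miR-218-2-3p and miR-585-3p share SLIT3 and exceed 100 CPM in both BE(2)-C libraries, whereas miR-218-1-3p of SLIT2 does not exceed 0.532 CPM there.

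miR-139-5p, hosted by PDE2A, was abundant in BE(2)-C and scarce in all other lines. hsa-miR-139-5p was measured at 32565 and 19589 CPM in BE(2)-C, with a mean of 26077 ± 9175 CPM (SD, n = 2) that ranked ninth, and took 3.26% and 1.96% of all miRNA reads. MV3 had 29.0 and 18.7 CPM, ES-2 16.8 and 24.4 CPM, A-549 12.0 and 21.8 CPM, PANC-1 9.64 CPM and Hep-G2 3.62 and 5.60 CPM. The ranges of MV3, ES-2 and A-549 overlapped. The BE(2)-C mean was 1094-fold that of MV3, 1265-fold that of ES-2, 1542-fold that of A-549, 2704-fold that of PANC-1 and 5656-fold that of Hep-G2. With TMM factors, which raise Hep-G2 (factors 0.166 and 0.217 against 1.02 to 1.87 elsewhere), Hep-G2 became the line nearest to BE(2)-C with 23.8 scaled CPM.

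No difference in miR-139-5p between the NEXTflex lines passed the test. The log2 difference was -0.31 ± 0.42 for A-549 against ES-2 (95% interval -1.28 to 0.67; limma, adjusted p = 0.57). It was -0.50 ± 0.42 for A-549 against MV3 (-1.47 to 0.48; limma, adjusted p = 0.351) and -0.19 ± 0.42 for ES-2 against MV3 (-1.17 to 0.78; limma, adjusted p = 0.81). The sign of each turned under at least 1 other scaling or tool. The F test of limma gave an adjusted p of 0.223. The levels of MV3, ES-2 and A-549 rested on 63 to 84 reads per line.

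hsa-miR-139-3p, the other arm, was measured at 252 and 206 CPM in BE(2)-C (229 ± 32.8 CPM; SD, n = 2). The other lines had 4.26 and 8.39 CPM in MV3, 3.61 and 3.05 CPM in ES-2, 0 and 1.46 CPM in A-549, 0.168 and 0.330 CPM in Hep-G2 and 0 reads in PANC-1. BE(2)-C lay 36.2-fold above MV3 and 68.8-fold above ES-2. The arm passed the filter on low levels (a mean of 10 CPM in any line) through BE(2)-C alone and was not tested in the fit of the NEXTflex libraries only, where the filter removed it. Among the NEXTflex lines, A-549 was lower than MV3 by a log2 difference of -2.16 ± 0.48 (SE; limma, adjusted p = 0.00642), a call that held without a filter (adjusted p = 0.0204) and that DESeq2 did not make (adjusted p = 0.0936). A-549 was also lower than ES-2, by -1.46 ± 0.48 (SE; limma, adjusted p = 0.0371), yet this call was lost with TMM factors (adjusted p = 0.0593), without a filter (0.103), with edgeR (0.106), with DESeq2 (0.225) and in 7 of 10 fits that left out a replicate. These included the fit without A-549 replicate 1, in which the arm had 0 reads and without which the difference was -0.81 (adjusted p = 0.179). ES-2 and MV3 differed by -0.70 ± 0.48 (SE; limma, adjusted p = 0.316). The reads behind these levels were few, with 18 in MV3, 13 in ES-2 and 3 in A-549.

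**Figure D4:**
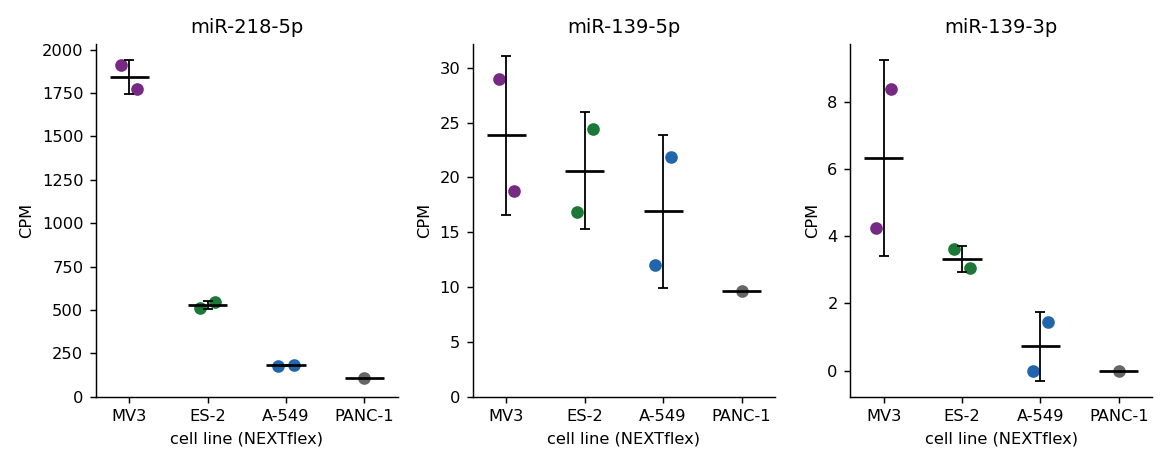
CPM of miR-218-5p, miR-139-5p and miR-139-3p in the 4 NEXTflex lines, with points for libraries, horizontal bars for the line mean and error bars for the SD (n = 2; PANC-1 has 1 library and no error bar). miR-218-5p falls from 1841 CPM in MV3 to 110.4 CPM in PANC-1 without overlap of lines, whereas the miR-139-5p libraries of MV3, ES-2 and A-549 overlap.

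Both arms of miR-490, hosted by CHRM2, were read at similar levels and nearly exclusively in BE(2)-C. hsa-miR-490-5p was measured at 92.9 and 140.7 CPM in BE(2)-C (1619 reads) and had 0 reads in all 9 other libraries. Its BE(2)-C level was at least 104.5-fold that of MV3, where the limit was highest, and at least 922-fold that of Hep-G2, where it was lowest. hsa-miR-490-3p was measured at 81.5 and 173.9 CPM in BE(2)-C (1750 reads) and had 1 read in Hep-G2 replicate 1 and none in the other 8 libraries. It was at least 113-fold higher than in MV3, and 2989-fold higher than in Hep-G2 with a counting interval from 536 to 118137. With next to no reads outside BE(2)-C, neither these arms nor miR-218-2-3p could be compared between the other lines.

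Read as counts over all arms, 6 of the 7 passed the filter, which asks for 10 CPM or more as the mean of any line, and miR-218-2-3p, miR-139-3p and both miR-490 arms passed it through BE(2)-C alone. In these 6, both BE(2)-C libraries lay above every other library, also with TMM factors. The same held for 37.4% of all 546 tested miRNAs and, as the arms had been picked for this pattern, nothing is read from the count. In all, 5 miRNAs reached 100 CPM in BE(2)-C and stayed under 1 CPM in each other library. Of these, 3 were miR-218-2-3p and the miR-490 arms. As the arms had been picked for a high level in BE(2)-C, nothing is read from this count either. Among the NEXTflex lines, the F test called miR-218-5p and miR-139-3p, 2 of the 6 arms, while 78.0% of all tested miRNAs were called. Since 4 of the 6 entered the test through BE(2)-C alone and 3 of these had next to no reads in the NEXTflex lines, nothing is read from this count or from the next ones. The number called lower in A-549 than in ES-2 was 2 (26.9% of all tested miRNAs), lower in A-549 than in MV3 also 2 (37.4%) and lower in ES-2 than in MV3 1 (23.8%). The median log2 difference of all tested miRNAs was -0.17, -0.47 and -0.36 in these 3 comparisons on plain CPM and 0.00, 0.03 and 0.00 with TMM factors. Of all calls, 53.3%, 65.2% and 72.6% were lower in the line named first on plain CPM, and 43.8%, 39.7% and 50.3% with TMM factors.

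The replicates of BE(2)-C were not alike for all arms. The ratio of replicate 2 to replicate 1 was 1.28 for miR-218-5p, 0.990 for miR-218-2-3p, 0.602 for miR-139-5p, 0.816 for miR-139-3p, 1.51 for miR-490-5p and 2.13 for miR-490-3p. Over the 401 miRNAs with a mean of at least 10 CPM in BE(2)-C the median of this ratio was 0.38 on the log2 scale, and 25.7% were more than 2-fold apart. The miR-139 arms therefore moved opposite to most miRNAs between these libraries, and the miR-490 arms and miR-218-5p moved with them.

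The hairpins differed in how reads were distributed over their arms. The 5p arm took 99.84% (95% Wilson interval 99.83% to 99.85%) and 99.88% of miR-218 reads in the BE(2)-C libraries and 99.6% to 100% in the other libraries. For miR-139 its share was 99.2% (99.2% to 99.3%) and 98.96% (98.90% to 99.01%) in BE(2)-C. miR-490 had no dominant arm, with 53.3% (50.6% to 56.0%) 5p reads in replicate 1 and 44.7% (42.6% to 46.9%) in replicate 2, so that the leading arm changed between replicates. Over 273 hairpins with at least 20 reads in each BE(2)-C library, the larger arm took a median of 97.8% (quartiles 85.0% and 99.7%), and 16 hairpins (5.86%) had a larger arm under 60%. miR-490 was the most even of these 273, and its 5p share differed by 8.55 percentage points between the replicates, where the median hairpin differed by 1.28.

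The share of the miR-139 arms was not the same in all lines. The 5p arm made up 87.2% (95% Wilson interval 73.3% to 94.4%) and 69.0% (54.0% to 80.9%) of miR-139 reads in MV3 and 82.4% (66.5% to 91.7%) and 88.9% (78.8% to 94.5%) in ES-2. In Hep-G2, prepared like BE(2)-C, it was 95.6% (85.2% to 98.8%) and 94.4% (86.6% to 97.8%). In A-549 it was 100% of 32 reads and 93.8% (83.2% to 97.9%) of 48 reads, and in PANC-1 100% of 94 reads. The intervals of both libraries of MV3, ES-2 and Hep-G2 and of A-549 replicate 2 lay below those of BE(2)-C, and those of A-549 replicate 1 and PANC-1 did not. At the arm ratio of BE(2)-C, 0.243 to 0.817 reads of miR-139-3p per library would accompany the miR-139-5p reads of the other libraries, and 0 to 13 were counted. Differences of these shares between lines were not tested. miR-585 changed its leading arm between lines: the 5p arm took 0.696% and 0.270% of its reads in BE(2)-C, 12.5% and 33.3% in A-549 and 42 of 56 reads (62.3% to 84.5%) in PANC-1. Of 218 hairpins with enough reads, 33 (15.1%) had another leading arm in PANC-1 than in BE(2)-C.

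**Figure D5:**
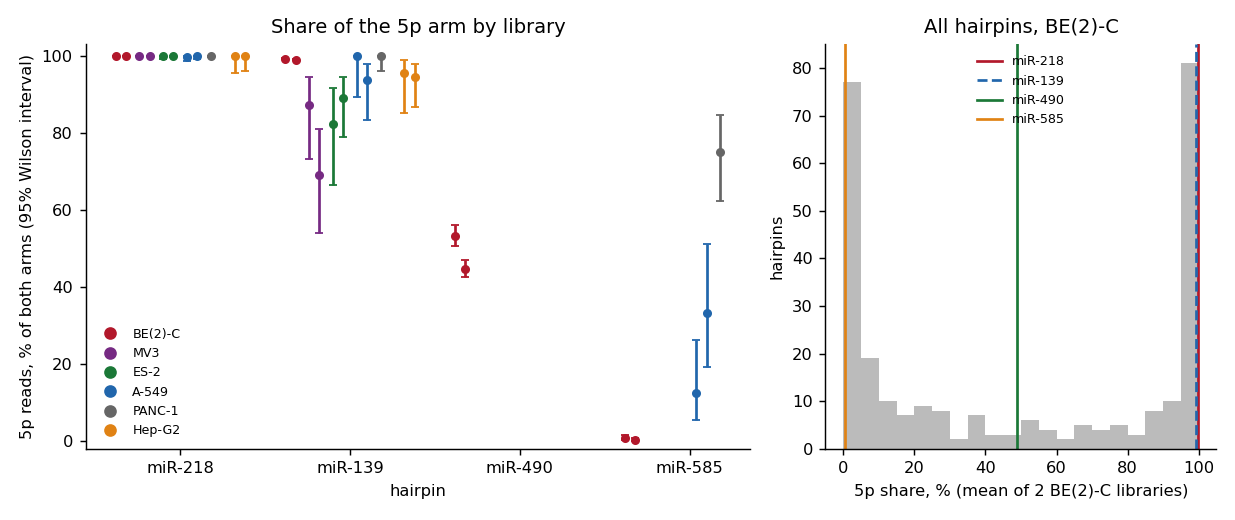
Left, percent of reads from the 5p arm for each hairpin in the libraries with at least 20 reads, with 95% Wilson intervals. Right, the number of hairpins at each mean 5p share in BE(2)-C, with vertical lines for miR-218 and miR-139 near 100%, miR-490 at 49.0% and miR-585 near 0%.

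Other miRNAs within host genes were counted from lists to place these values. A first list held 40 arms hosted by genes of neuronal receptors, channels, axon guidance or other neuronal function, such as GABRE, TRPM3, EVL or ARRB1. Of these, 19 were tested, and both BE(2)-C libraries exceeded every other library for 10 of them (52.6%, and 8 with TMM factors). The F test over the NEXTflex lines called 16 of the 19, beside 78.0% of all tested miRNAs. In the list, 6 were higher and 6 lower in A-549 than in ES-2, 6 higher and 9 lower in A-549 than in MV3, and 6 higher and 7 lower in ES-2 than in MV3. Over all 546 tested miRNAs, 129, 109 and 49 were higher in the line named first in these comparisons, and 26.9%, 37.4% and 23.8% were lower. The most abundant was miR-224-5p of GABRE, a GABA receptor subunit gene, with 5986 ± 288 CPM in A-549 (SD, n = 2) and 0.199 CPM in BE(2)-C. miR-128-3p was highest in PANC-1 with 2938 CPM. miR-342-3p and miR-149-5p were highest in BE(2)-C, with 2009 ± 860 CPM and 1702 ± 571 CPM (SD, n = 2). A second list held the 1160 arms, other than the 7, whose loci all lie on the coding strand within introns of protein-coding genes, and shared 38 arms with the first. Of these 1160, 190 were tested, and BE(2)-C exceeded every other library for 63 (33.2%; 36 with TMM factors). This list was led by miR-10a-5p, miR-27b-3p, miR-26a-5p and miR-103a-3p. Its F test calls numbered 141 of 190, with 27 higher and 57 lower in A-549 than in ES-2, 18 and 78 in A-549 against MV3, and 24 and 48 in ES-2 against MV3. Over all tested miRNAs the shares with both BE(2)-C libraries on top were 37.4% on plain CPM and 28.8% with TMM factors.

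The miRNAs whose profile over the 6 lines was most like that of miR-218-5p were miR-99a-5p, miR-129-5p, miR-2682-5p, miR-125b-2-3p and miR-139-3p. Their root mean square differences of the centred line means on the log2(CPM + 1) scale were 0.87, 1.32, 1.40, 1.65 and 1.85, where the median over all tested miRNAs was 3.73. miR-99a-5p stood at 53215 CPM in BE(2)-C, 780.4 CPM in ES-2, 491 CPM in MV3, 166 CPM in A-549, 40.9 CPM in PANC-1 and 8.69 CPM in Hep-G2, so that MV3 and ES-2 changed places relative to miR-218-5p. For miR-139-5p the nearest were miR-214-5p (1.19), miR-375 (1.36), miR-2682-5p (1.43), miR-99a-5p (1.63) and miR-1197 (1.63), with a median over all of 3.80. miR-490-3p was matched most closely by its own 5p arm (0.03) and by miR-218-2-3p (0.11), followed by miR-541-5p (0.22), miR-873-3p (0.25) and miR-412-3p (0.27), with a median of 2.78. These are descriptions over 6 lines in which BE(2)-C sets most of the likeness.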

How the data were processed

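miRNA levels of 11 small RNA libraries were analysed. The submitters' processing notes name cutadapt 1.14, Bowtie2 2.3.2, SAMtools 1.5, featureCounts 1.5.3, edgeR 3.30.3 and build hg38, and the treatment of reads with several matches is not given in the sources used here. The authors deposited 1 table per line: CPM for PANC-1, and for the other 5 lines a scaled signal, which is CPM divided by a factor set within each table. All nonzero values (100%) were whole multiples of 1 read (tolerance 0.001), so that reads were recovered, rows of a name summed and CPM recomputed for every library. All per-sample columns were used.

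Moderated tests of limma 3.58.1 (R 4.3.3) used log2(CPM + 1) of the 546 miRNAs that reached a mean of 10 CPM in any line (cell line as factor, all 11 libraries, eBayes with trend, two-sided, Benjamini-Hochberg, threshold 0.05). The planned count test alternatives ran on recovered reads with edgeR 4.0.16 and DESeq2 1.42.0. edgeR called 226, 223 and 125 miRNAs for A-549 against ES-2, A-549 against MV3 and ES-2 against MV3. The limma fit was tested on simulated data for A-549 against ES-2 only. Further alternatives were TMM factors, other filters and pseudocount, deposited values, NEXTflex libraries only, a replicate block and leaving out each replicate, and those for the count of miRNAs highest in BE(2)-C were chosen after seeing the data. Replicates are biological according to the study's methods. Genomic features came from GENCODE v44. Named miRNAs were the 7 arms, miR-585, seed mates, the 5 most alike profiles and the 4 most abundant of each list. The arms and lists were chosen with earlier results of these data known.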

Additional observations from a re-analysis of the deposited data

How the results depend on the processing

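All calls for miR-218-5p and miR-585-3p and their directions were kept under every alternative run, and in each comparison the number of miRNAs called stayed within 1.5 times the main number, apart from the F test with a filter of 100 CPM, which called 274 of 314 in place of 426 of 546 because fewer miRNAs were tested. Leaving out a replicate gave 241 to 318 calls for A-549 against ES-2 (276 with all libraries), 258 to 323 for A-549 against MV3 (313), 129 to 213 for ES-2 against MV3 (179) and 390 to 431 for the F test. Both BE(2)-C libraries exceeded all others for 37.4% of 546 miRNAs with plain CPM and 28.8% with TMM factors, and the remaining BE(2)-C library alone did so for 218 to 247. TMM factors lowered the BE(2)-C level of miR-218-5p to 51052, of miR-218-2-3p to 70.5, of miR-139-5p to 17303, of miR-139-3p to 151, of miR-490-5p to 75.6 and of miR-490-3p to 82.0 scaled CPM. The log2 difference of BE(2)-C from the next line moved from 5.40 to 5.68 for miR-218-5p and from 10.02 to 9.38 for miR-139-5p. Counting only the highest genomic copy gave miR-218 a 5p share of 99.7%.

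The sign of the log2 difference of miR-139-5p, never past the threshold, turned for A-549 against ES-2 without A-549 replicate 1 (0.10) and with DESeq2 (0.34), for A-549 against MV3 with TMM factors (0.26), edgeR (0.29) and DESeq2 (0.57), and for ES-2 against MV3 with TMM factors (0.26), without ES-2 replicate 1 (0.06), without MV3 replicate 1 (0.11), with edgeR (0.35) and with DESeq2 (0.23). Over all fits that left out a replicate it ranged from -0.71 to 0.10 for A-549 against ES-2 and from -0.49 to 0.11 for ES-2 against MV3. The cause was not tested. With DESeq2, 33.0%, 32.0% and 52.6% of calls were lower in the line named first in the 3 comparisons.

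The replicate block called 274, 308 and 175 miRNAs in the 3 comparisons and 417 in the F test, and changed no call of the arms described. Deviations of same-numbered libraries of different lines were only weakly correlated (from -0.05 to 0.11 over 10 pairs of lines, highest for BE(2)-C with Hep-G2). Such correlations cannot exclude that same-numbered libraries were handled together. Low read counts outside BE(2)-C limit what can be said of miR-139-3p, the miR-218 3p arms and the miR-490 arms there. The libraries of MV3, ES-2 and A-549 were shallower than those of BE(2)-C, whereas those of Hep-G2 and PANC-1 were deeper. PANC-1 has no replicate.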
